A study of Mus musculus with 12 samples.

Results

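The nucleolar ribosome biogenesis genes are 36 named genes whose proteins transcribe, modify, cut and assemble ribosomal RNA. They were found on the array by their platform gene symbol, and 33 of the 36 were measured, by 35 of the 17589 probes. No probe carried the symbols Dkc1, Nop14 or Gnl3. Bop1 and Nip7 had 2 probes each, and the others had 1. All 35 probes had values on all 12 arrays.

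A pair of structures of the developing mouse mammary gland were measured at 5 weeks of age. Terminal end buds are the swollen growing tips of the ductal tree, and ducts are the mature tubes behind them. Both were microdissected from animals with a green fluorescent reporter under the beta-actin promoter, which served to make the glands visible. Each of 6 arrays carried terminal end bud RNA in Cy5, and each of another 6 carried duct RNA in Cy5. The Cy3 channel of all 12 arrays carried RNA of distal stroma, the part of the fat pad that the epithelium has not yet reached. The labels name no strain beyond the reporter and do not say whether RNA of several animals was pooled or whether arrays came from separate animals. The p-values below therefore measure the spread between arrays, which may be technical, and the number of arrays limits the precision.

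The nucleolus is the nuclear body in which ribosomes are made. RNA polymerase I transcribes a long precursor of ribosomal RNA there, small nucleolar ribonucleoproteins (snoRNPs) guide its chemical modification and early cuts, and assembly factors then build the small and the large ribosomal subunit separately before export. Growing cells need many ribosomes, and transcription of much of this gene set is known to be driven by the growth regulator Myc.

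Every value is a log2 ratio of epithelium to distal stroma, so a value of 0 means equal signal and a difference between the structures is a terminal end bud ratio minus a duct ratio. No source used here gives the base of the logarithm. Base 2 was taken because it is the usual choice, and another base would change the sizes and folds but no sign or p-value. Stroma was never hybridised in the Cy5 channel, and its signal is the denominator of every ratio. Its variation between arrays is therefore part of the spread of the ratios and cannot be told apart from that of the epithelium. How far this covers differences between stroma of separate animals is not known, as the labels do not say whether its RNA was pooled. A dye bias of a probe that is alike on all arrays stays in the ratios over stroma and cancels in the difference of the structures. In pieces of tissue, fewer cells of a type and less RNA per cell cannot be told apart. Markers of epithelium and stroma went only partly with the labels. Of 13 luminal markers, 12 were above stroma in each structure. Of 11 adipocyte markers, 10 were below it in terminal end buds and 5 in ducts. Fibroblast markers, also of stroma, were not lower as a list. Of 11, 5 were above and 1 below stroma in terminal end buds. In ducts 6 were above and 0 below (limma; 1 was below at an unadjusted p under 0.05). Over all probes 23.2% were called above stroma and 20.4% below it in terminal end buds. In ducts these shares were 16.0% and 12.2%.

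Most of these genes were above distal stroma in terminal end buds, and fewer of them were in ducts. Of the 33 measured genes, 23 were called above stroma and 2 below it in terminal end buds (limma, Benjamini-Hochberg adjusted p under 0.05), where 23.2% of all probes were called higher, 20.4% lower and 43.6% in either direction. In ducts 16 were higher and 1 lower, against 16.0% and 12.2% of all probes, or 28.2% in either direction. Over all genes read from 1 probe each, 24.8% were called higher and 21.8% lower in terminal end buds. In ducts these shares were 17.1% and 13%. The 23 include Bop1, whose probes conflict, and 22 were called with the mean of a gene's probes. The median ratio of the 33 genes was 0.38 in terminal end buds and 0.18 in ducts, beside 0.013 over all 12913 genes in either structure. A rise of at least 2-fold was reached by 7 genes in terminal end buds (Pa2g4, Npm1, Fbl, Mybbp1a, Nop56, Nhp2 and Mrto4) and by Npm1 in ducts. Slide numbers here are the digits that end the array titles, from 190 to 203. The cut between 193 and 196 was chosen for the re-analysis and is not a recorded batch. Slides up to 193 hold 2 arrays of each structure. On these alone 15 genes were called higher in terminal end buds and 5 in ducts, with medians of 0.28 and 0.13. Calls over all probes were fewer there too, at 13.5% and 6.21% higher. On slides from 196 on alone these counts were 22 and 12, with medians of 0.41 and 0.24, beside 20.2% and 12.7% of all probes.

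Directly compared, 15 of the 33 genes were higher and 1 was lower in terminal end buds than in ducts, where 8.32% of all probes were called higher, 10.4% lower and 18.7% in either direction (limma adjusted p under 0.05). Over all genes read from 1 probe each, 9.11% were called higher and 11.3% lower. The median difference was 0.23, beside 0.001 over all genes, and 25 of the 33 differences were above 0. For 10 genes every terminal end bud array lay above every duct array, and for Ncl every one lay below. Such separation upward was seen in 4.42% of all probes and separation downward in 5.79%. The count of higher genes depended on scaling. Terminal end bud arrays had wider ratios over all probes than duct arrays, with an SD of 0.594 ± 0.0405 (SD, n = 6) against 0.431 ± 0.037 (SD, n = 6). After quantile normalization, which gives all arrays the same spread, 9 genes were called higher in place of 15, and Nop56, Pa2g4, Pes1, Ddx21, Nip7 and Noc2l were no longer called. The share of all probes called higher was then 5.57%. On slides up to 193 alone 5 genes were called higher and 2 lower, where 2.19% and 3.71% of all probes were. On slides from 196 on alone 7 were higher and 1 lower, where 5.63% and 8.13% of all probes were. Under every one of the 23 alternatives tried, 4 genes kept their call: Fbl, Nhp2 and Mrto4, which were higher, and Ncl, which was lower.

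**Figure D1:**
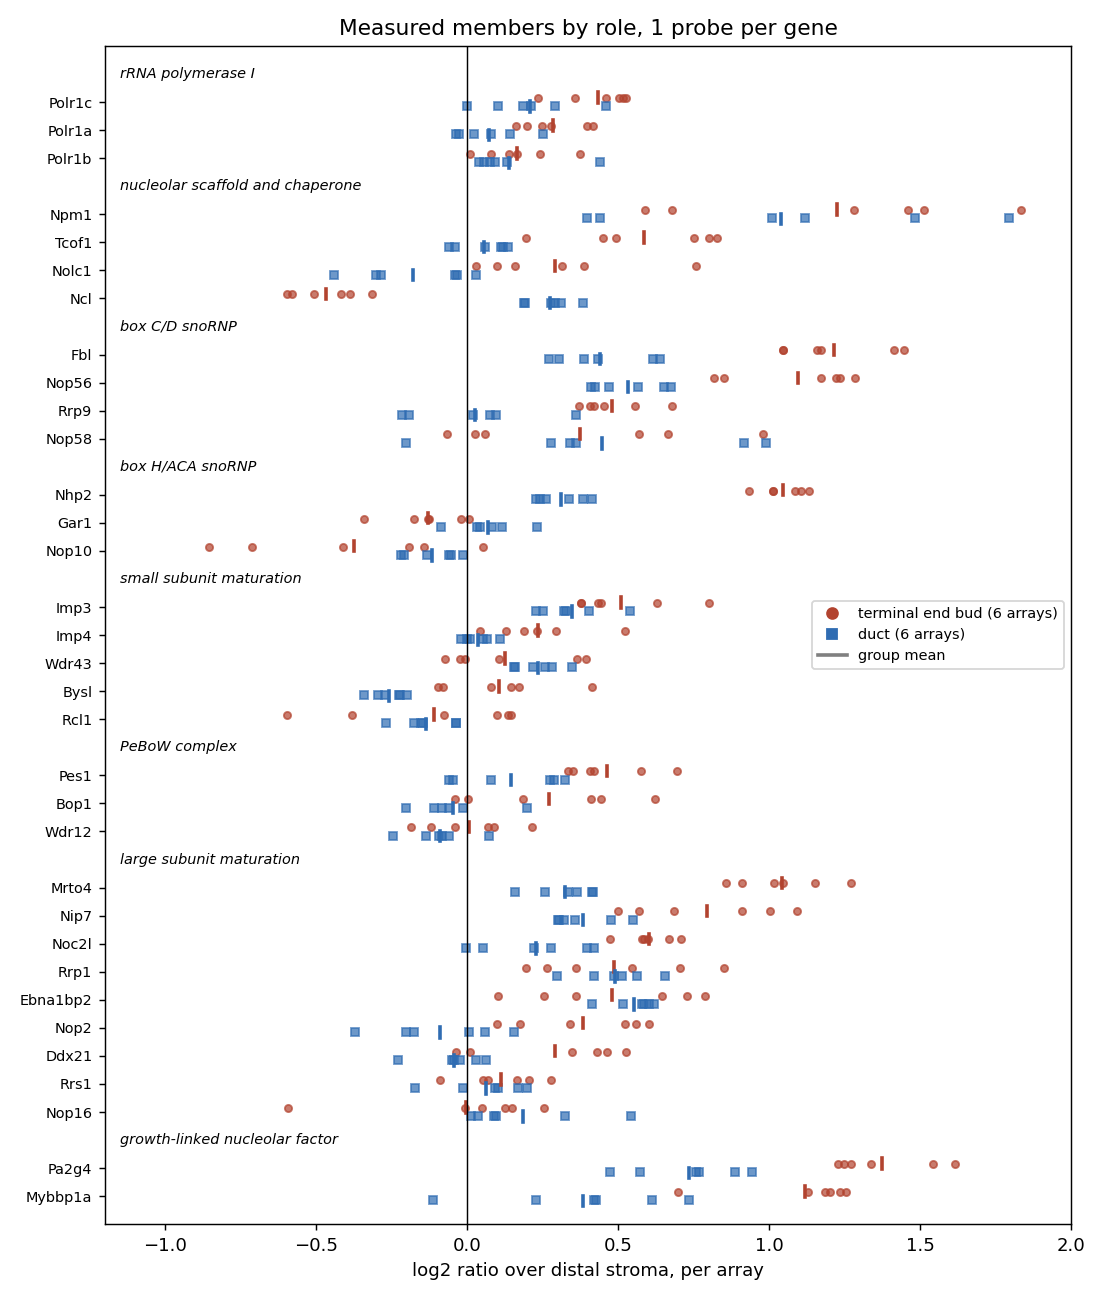
Log2 ratio over distal stroma of the 33 measured genes on each array, grouped by role, with circles for the 6 terminal end bud arrays, squares for the 6 duct arrays and bars for the group means. Circles and squares are fully apart for genes such as Fbl, Nhp2 and Mrto4, and in the opposite order for Ncl, while those of Npm1 and Nop58 are spread and mixed.

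RNA polymerase I, which makes the ribosomal RNA precursor, was represented by 3 subunits with small ratios. Polr1a, the largest subunit, ranged from 0.16 to 0.42 on terminal end bud arrays (median 0.26) and from -0.039 to 0.25 on duct arrays (median 0.050). Polr1c, a subunit shared with RNA polymerase III, ranged from 0.24 to 0.53 in terminal end buds (median 0.48) and from -0.001 to 0.46 in ducts (median 0.20). Polr1b, the second largest subunit, lay between 0.008 and 0.37 in terminal end buds (median 0.15) and between 0.037 and 0.44 in ducts (median 0.084). The arrays of both structures overlapped for all 3. Against stroma the 3 subunits rose in terminal end buds by 0.28 (Polr1a), 0.43 (Polr1c) and 0.17 (Polr1b), with limma adjusted p of 0.000596, 4.49e-05 and 0.0438. In ducts only Polr1c passed, at 0.21 (limma adjusted p = 0.0218), and without duct replicate 5 or duct replicate 6 it did not. Polr1b lost its call in terminal end buds on leaving out any of 8 single arrays, for example at 0.13 (limma adjusted p = 0.146) without terminal end bud replicate 2. Between the structures limma called 0 of the 3, and 2 passed an unadjusted threshold of 0.05. Polr1a differed by 0.21 (limma adjusted p = 0.0721) and Polr1c by 0.23 (limma adjusted p = 0.0956). Polr1a was called without duct replicate 4 (0.25, limma adjusted p = 0.037) and Polr1c without duct replicate 6 (0.28, limma adjusted p = 0.0378).

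The scaffold and chaperone proteins of the nucleolus went different ways. Npm1, the nucleophosmin that carries proteins in and out of the nucleolus, ranged from 0.59 to 1.83 on terminal end bud arrays (median 1.37) and from 0.396 to 1.79 on duct arrays (median 1.06). It was high in both structures and spread widely, and the groups overlapped over most of their range. Its mean ratio was 1.23 (SE 0.19, limma adjusted p = 7.88e-05) in terminal end buds and 1.04 (SE 0.19, limma adjusted p = 0.000769) in ducts. The difference of 0.19 (SE 0.26) was not called by limma (adjusted p = 0.701). Its sign turned under both scalings to a common spread (-0.11 after quantile normalization) and to -0.39 on slides up to 193 alone. Among ducts Npm1 was highest in replicate 2 at 1.79 and replicate 5 at 1.48, the arrays on which the median of 31 mitosis genes was also highest, at 0.43 and 0.67. The same arrays had the highest duct medians of cytosolic ribosomal proteins, at 1.08 and 0.89, and of fibroblast markers, at 1.27 and 0.57. The part of these in the Npm1 values was not tested.

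Ncl, nucleolin, an abundant RNA-binding protein that coats nascent ribosomal RNA, had the opposite pattern to most of the set. Its ratios ran from -0.598 to -0.317 on terminal end bud arrays (median -0.46) and from 0.19 to 0.38 on duct arrays (median 0.28). All 6 terminal end bud arrays were below stroma and all 6 duct arrays above it, so the groups did not overlap. The mean was -0.47 (SE 0.051, limma adjusted p = 3.48e-06) in terminal end buds and 0.27 (SE 0.051, limma adjusted p = 0.00111) in ducts. The difference was -0.74 (SE 0.073, limma adjusted p = 1.53e-05), and it stayed between -0.77 and -0.703 under all 23 alternatives. Ncl was the single measured gene of the set called in opposite directions over stroma in the 2 structures. It was read from 1 probe, so no second probe of this gene bears on the pattern. On slides up to 193 alone the duct ratio of 0.24 was not called (limma adjusted p = 0.179).

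Tcof1 and Nolc1, related acidic proteins that link polymerase I and the snoRNPs to the nucleolus, were higher in terminal end buds. Tcof1, known as treacle, ranged from 0.195 to 0.83 in terminal end buds (median 0.62) and from -0.061 to 0.13 in ducts (median 0.086). Its groups did not overlap, and its duct arrays lay around the level of stroma. The difference was 0.53 (SE 0.11, limma adjusted p = 0.00298), and 0.59 (limma adjusted p = 0.0798) on slides up to 193 alone. Nolc1, known as Nopp140, ranged from 0.027 to 0.76 in terminal end buds (median 0.24) and from -0.44 to 0.027 in ducts (median -0.16). The groups met at a single value, 0.027. Nolc1 differed by 0.47 (SE 0.13, limma adjusted p = 0.0171), and by 0.099 (limma adjusted p = 0.748) on slides up to 193 alone. Its rise over stroma in terminal end buds, 0.29, was not called without terminal end bud replicate 3, the highest array (0.197, limma adjusted p = 0.0599).

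Box C/D snoRNPs add methyl groups to the ribose of ribosomal RNA. Of 4 measured proteins of this class, 3 were higher in terminal end buds than in ducts, beside 8.32% of all probes. Fbl, fibrillarin, the methyltransferase itself, ranged from 1.04 to 1.45 in terminal end buds (median 1.17) and from 0.27 to 0.64 in ducts (median 0.41). All 12 arrays were above stroma and the groups were far apart. The difference was 0.77 (SE 0.098, limma adjusted p = 0.000116), a 1.71-fold higher ratio, and 0.51 (limma adjusted p = 0.00181) after quantile normalization. Nop56, a core scaffold of the same particles, ranged from 0.82 to 1.28 in terminal end buds (median 1.196) and from 0.41 to 0.68 in ducts (median 0.52). Its groups did not overlap either, and it differed by 0.56 (SE 0.099, limma adjusted p = 0.0012), or by 0.303 (limma adjusted p = 0.0816) after quantile normalization.

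Rrp9, a protein of the U3 snoRNP that directs the first cuts of the precursor, lay between 0.37 and 0.68 in terminal end buds (median 0.44) and between -0.22 and 0.36 in ducts (median 0.046). Only a narrow gap separated the lowest terminal end bud array from duct replicate 4, the highest duct array. The difference was 0.46 (SE 0.101, limma adjusted p = 0.00543). It was 0.75 (limma adjusted p = 0.0396) on slides up to 193 alone and 0.31 (limma adjusted p = 0.0745) on later slides alone. Nop58, the partner of Nop56 in the core particle, was unlike the other 3. It ranged from -0.066 to 0.98 in terminal end buds (median 0.31) and from -0.203 to 0.99 in ducts (median 0.35), and the groups overlapped completely. Its difference of -0.075 (SE 0.22) was not called (limma adjusted p = 0.869), its range over alternatives was -0.69 to 0.24, and its SDs of 0.43 and 0.44 (n = 6 each) were several times those of Fbl, 0.18 and 0.16. The duct ratio of 0.45 passed narrowly (limma adjusted p = 0.0459) and did not pass without any 1 of several arrays, for example at 0.34 (limma adjusted p = 0.154) without duct replicate 2.

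Box H/ACA snoRNPs convert uridines of ribosomal RNA to pseudouridine, and their proteins did not move together. Nhp2 ranged from 0.93 to 1.13 in terminal end buds (median 1.05) and from 0.23 to 0.41 in ducts (median 0.30). It had the tightest arrays of the 7 genes that rose at least 2-fold, with SDs of 0.074 and 0.079 (n = 6 each), and its groups were well separated. The difference was 0.74 (SE 0.067, limma adjusted p = 9.55e-06). Nop10, the smallest protein of the particle, lay between -0.86 and 0.052 in terminal end buds (median -0.302) and between -0.22 and -0.014 in ducts (median -0.097). It was below stroma on 5 of 6 terminal end bud arrays and on all duct arrays. Its mean of -0.38 (SE 0.097, limma adjusted p = 0.00539) in terminal end buds differed between slides. It was -0.78 on slides up to 193 and -0.17 (limma adjusted p = 0.125) on later slides. Gar1, a further core protein, ranged from -0.34 to 0.006 in terminal end buds (median -0.13) and from -0.087 to 0.23 in ducts (median 0.062). It lay close to stroma, its groups overlapped, and it was called in neither structure. The difference of Nop10 was -0.26 (limma adjusted p = 0.231) and that of Gar1 -0.201 (limma adjusted p = 0.0998). Dkc1, the pseudouridine synthase of these particles, was not measured.

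Among 5 measured factors of the small subunit, 2 were higher than stroma in each structure. Over all probes 23.2% were called higher in terminal end buds and 16.0% in ducts. Imp3, which pairs U3 RNA with the precursor, ranged from 0.38 to 0.802 in terminal end buds (median 0.44) and from 0.23 to 0.54 in ducts (median 0.32). All of its arrays were above stroma, the groups overlapped, and the difference of 0.17 was not called (limma adjusted p = 0.253). Its partner Imp4 was called at 0.23 (SE 0.058, limma adjusted p = 0.00401) in terminal end buds. Wdr43 was called at 0.24 (SE 0.066, limma adjusted p = 0.0158) in ducts, and not without duct replicate 5 (limma adjusted p = 0.0553).

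Bysl, bystin, a late factor of the small subunit, was the single gene of the set called below stroma in ducts when each gene was read from 1 probe. Its duct arrays all lay between -0.34 and -0.201 (median -0.25), and its terminal end bud arrays lay between -0.096 and 0.41 (median 0.11). The groups did not overlap. Bysl differed by 0.37 (SE 0.088, limma adjusted p = 0.00896) while its terminal end bud mean of 0.105 was not called (limma adjusted p = 0.195). The difference was called neither on slides up to 193 alone (0.49, limma adjusted p = 0.205) nor on later slides alone (0.31, limma adjusted p = 0.0508). Rcl1, which acts in early cuts of the small subunit RNA, ranged from -0.597 to 0.15 in terminal end buds (median 0.012) and from -0.27 to -0.038 in ducts (median -0.15). Its terminal end bud arrays enclosed all duct arrays, and it was called in neither structure.

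The PeBoW complex of Pes1, Bop1 and Wdr12 is needed to process the RNA of the large subunit, and its members had small ratios. Pes1, pescadillo, ranged from 0.33 to 0.69 in terminal end buds (median 0.41) and from -0.060 to 0.32 in ducts (median 0.18). Its groups were separated by a narrow gap. The difference of 0.32 (SE 0.096, limma adjusted p = 0.0303) was not called after quantile normalization or scaling to a common spread, nor on leaving out any of 5 single arrays. Bop1 gave conflicting probes. The first stood at 0.27 (SE 0.083, limma adjusted p = 0.0159) and the second at -0.23 (SE 0.069, limma adjusted p = 0.0139) in terminal end buds. The second was also below stroma in ducts, at -0.21 (limma adjusted p = 0.0362). The mean of both probes in terminal end buds was 0.020, so the call of Bop1 above stroma rests on the choice of probe. Wdr12 was at 0.004 and -0.092 and was called in no comparison.

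Of 9 factors of the large subunit, 7 were higher than stroma in terminal end buds and 5 in ducts. Between the structures, 5 were higher in terminal end buds. Over all probes the shares called higher in these 3 comparisons were 23.2%, 16.0% and 8.32%. Mrto4, which holds the place of a stalk protein in the early subunit, ranged from 0.86 to 1.27 in terminal end buds (median 1.03) and from 0.16 to 0.42 in ducts (median 0.35). The groups were far apart. The difference was 0.72 (SE 0.084, limma adjusted p = 6.46e-05), a 1.64-fold higher ratio. Noc2l ranged from 0.47 to 0.71 in terminal end buds (median 0.59) and from -0.006 to 0.42 in ducts (median 0.25). Its groups were apart, and it differed by 0.37 (SE 0.087, limma adjusted p = 0.00744), or by 0.28 (limma adjusted p = 0.079) on slides from 196 on. Its duct ratio of 0.23 was not called without duct replicate 5 (0.19, limma adjusted p = 0.0522).

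Nip7 ranged from 0.498 to 1.09 in terminal end buds (median 0.797) and from 0.301 to 0.55 in ducts (median 0.34) on its first probe. Only duct replicate 5 reached into the terminal end bud range. The difference was 0.41 (SE 0.107, limma adjusted p = 0.0152). The second Nip7 probe showed 0.070 in terminal end buds and -0.035 in ducts and was called nowhere, and the mean of both probes differed by 0.26 (limma adjusted p = 0.0141). On the first probe the difference was 0.22 (limma adjusted p = 0.213) after quantile normalization, and it was also not called with a common spread or on either set of slides alone. Nop2, a methyltransferase of the large subunit RNA, ranged from 0.099 to 0.602 in terminal end buds (median 0.43) and from -0.37 to 0.15 in ducts (median -0.085). A single duct array, replicate 3, overlapped with the lowest terminal end bud array. Nop2 differed by 0.47 (SE 0.11, limma adjusted p = 0.00946), but was not called on slides up to 193 alone (0.52, limma adjusted p = 0.161) or on later slides alone (0.45, limma adjusted p = 0.0665).

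Ddx21, a helicase of the nucleolus, ranged from -0.039 to 0.53 in terminal end buds (median 0.39) and from -0.23 to 0.062 in ducts (median -0.033). Terminal end bud replicates 2 and 5 fell among the duct arrays. The difference of 0.33 (SE 0.107, limma adjusted p = 0.0437) was the weakest of the 15 calls and was lost under 14 of the 23 alternatives, 10 of which left out 1 array. Ebna1bp2 and Rrp1, both early factors of the large subunit, were above stroma at similar mean ratios in either structure. Ebna1bp2 ranged from 0.101 to 0.79 in terminal end buds (median 0.502) and from 0.41 to 0.62 in ducts (median 0.58), and all 12 arrays were above stroma. Its means stood at 0.48 (SE 0.081) in terminal end buds and 0.55 (SE 0.081) in ducts, and those of Rrp1 at 0.486 (SE 0.081) and 0.49 (SE 0.081). Their differences of -0.072 and -0.003 were not called (limma adjusted p = 0.737 and 0.989), which does not show that they were equal. In both genes the terminal end bud arrays were spread more widely than the duct arrays, with SDs of 0.28 against 0.076 for Ebna1bp2 and 0.26 against 0.12 for Rrp1 (n = 6 each). Rrs1 and Nop16 were called in no comparison.

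Pa2g4 and Mybbp1a, nucleolar proteins tied to growth control, were among the highest of the set. Pa2g4, known as Ebp1, which binds ribosomal particles and a receptor of the epidermal growth factor family, ranged from 1.23 to 1.62 in terminal end buds (median 1.304) and from 0.47 to 0.94 in ducts (median 0.76). It had the highest mean of the 33 genes in terminal end buds, and its groups did not overlap. The difference was 0.64 (SE 0.101, limma adjusted p = 0.000571), and 0.31 (limma adjusted p = 0.0652) after quantile normalization. Mybbp1a, which holds back ribosomal RNA synthesis and transcription by other factors, ranged from 0.699 to 1.25 in terminal end buds (median 1.19) and from -0.11 to 0.73 in ducts (median 0.42). Its lowest terminal end bud array, replicate 3, lay just below duct replicate 5, and the other 5 were above all duct arrays. It differed by 0.73 (SE 0.14, limma adjusted p = 0.00193), by 0.49 (limma adjusted p = 0.0366) after quantile normalization, and by 0.65 (limma adjusted p = 0.0542) on slides from 196 on.

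**Figure D2:**
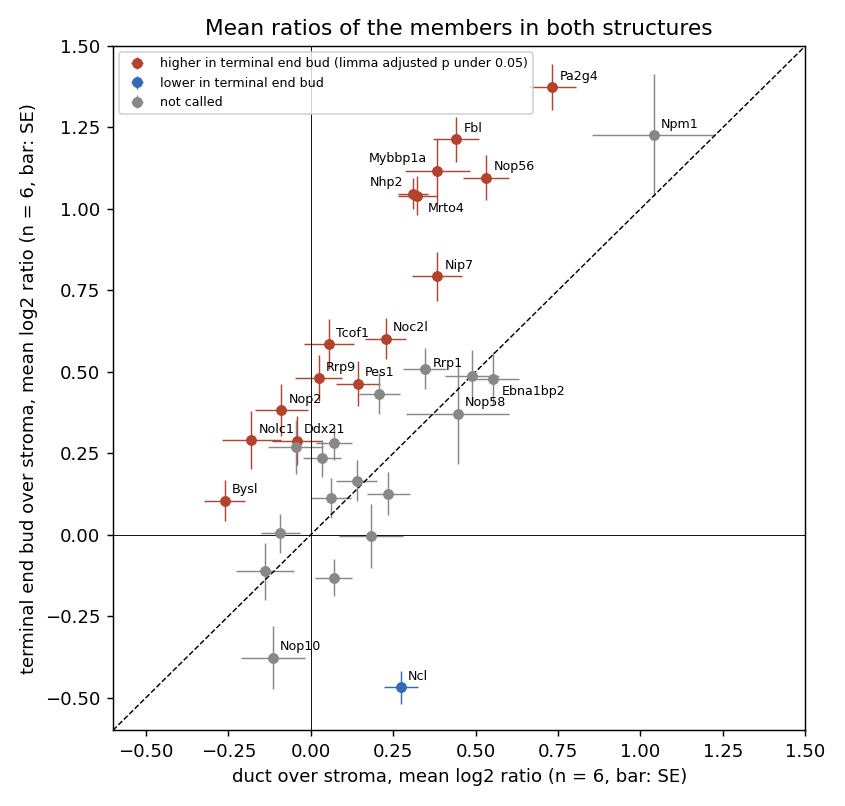
Mean log2 ratio over stroma of each of the 33 genes in ducts (horizontal axis) and in terminal end buds (vertical axis), with SE bars from the fit (n = 6 arrays each) and a dashed line of equality. The 15 genes called higher in terminal end buds lie above the line, Ncl alone is called below it, and Npm1, Rrp1 and Ebna1bp2 lie near it at positive ratios.

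The 33 genes fell into patterns when the 3 comparisons were read together. Above stroma in both structures and higher still in terminal end buds were 8 genes: Fbl, Nhp2, Nop56, Pa2g4, Mybbp1a, Nip7, Mrto4 and Noc2l. Another 6, Nop2, Pes1, Nolc1, Tcof1, Ddx21 and Rrp9, were called over stroma in terminal end buds, were not called in ducts, and differed between the structures. Above stroma in both with no call between them were 5 genes: Npm1, Polr1c, Ebna1bp2, Rrp1 and Imp3. In neither structure was a call over stroma made for 5 genes: Gar1, Nop16, Wdr12, Rrs1 and Rcl1. Polr1a, Polr1b, Bop1 and Imp4 were called above stroma in terminal end buds alone, and Nop58 and Wdr43 in ducts alone. None of these 6 was called between the structures. Nop10 was called below stroma in terminal end buds alone. Bysl was called below stroma in ducts and higher in terminal end buds than in ducts. Ncl was below stroma in terminal end buds and above it in ducts. The comparisons with stroma use the same arrays as the comparison between the structures, so these patterns are a description of calls. Under all 24 alternatives tried, 15 of the 25 calls over stroma in terminal end buds were kept. In ducts 4 of 17 were kept, those of Ebna1bp2, Npm1, Pa2g4 and Rrp1.

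**Figure D3:**
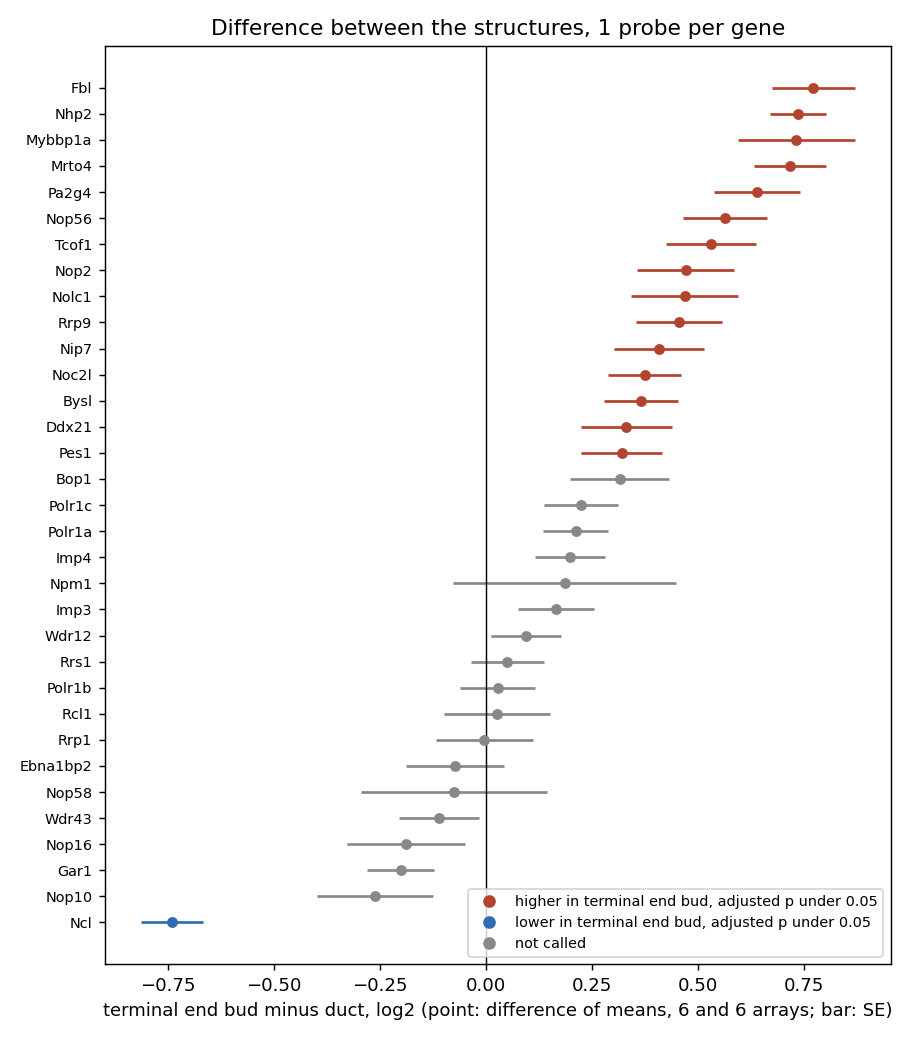
Terminal end bud minus duct on the log2 scale for the 33 genes, in order of size, with points for the difference of the means of 6 and 6 arrays and bars for its SE. The differences run from -0.74 for Ncl to 0.77 for Fbl, and the 15 genes called higher begin at 0.32 for Pes1.

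Because many of these genes moved in the same direction, the DNA before their start sites was searched for short motifs known from promoters of growth genes. RefSeq promoter sequences of build GRCm38.p6 were matched for 28 of the 33 genes by gene number, and the 250 bases before each start were searched on both strands, with motifs and printed genes chosen after the values were known. The E-box CACGTG, a site that Myc can bind, was found in 2 of the 28 genes (7.14%), Nop2 and Imp4, and in 9.15% of 10228 genes on the array. The ETS family core CCGGAAG was found in 6 of the 28 (21.4%) and in 12.2% of genes on the array. Among the genes called higher in terminal end buds than in ducts that had a sequence, 4 of 13 held it, and among the others 2 of 15. Over all 32851 RefSeq promoters of this length the shares were 6.02% for the E-box and 6.91% for the ETS core. The motifs do not overlap in these letters, a match is a description and not a bound site, and a missing match says only that the letters are not in this window. The sequences below are shown for Nhp2, a higher gene that kept its call under every alternative tried, for Nop2, which holds both motifs, and for Ncl, the gene with the opposite pattern, which holds neither. Capitals mark the E-box and the ETS core. Nhp2 is from chr11:51619523-51619772 on the plus strand, Nop2 from chr6:125131633-125131882 on the plus strand, and Ncl from chr1:86359456-86359705 on the minus strand.
Nhp2: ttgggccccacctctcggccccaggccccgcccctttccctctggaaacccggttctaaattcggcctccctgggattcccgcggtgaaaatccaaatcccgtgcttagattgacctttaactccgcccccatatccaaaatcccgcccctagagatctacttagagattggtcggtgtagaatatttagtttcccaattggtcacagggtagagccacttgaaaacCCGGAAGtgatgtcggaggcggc
Nop2: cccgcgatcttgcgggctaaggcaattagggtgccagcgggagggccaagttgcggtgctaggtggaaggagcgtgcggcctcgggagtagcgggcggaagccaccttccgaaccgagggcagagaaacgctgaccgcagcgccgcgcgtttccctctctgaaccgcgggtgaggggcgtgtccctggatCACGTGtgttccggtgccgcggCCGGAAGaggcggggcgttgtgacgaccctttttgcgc
Ncl: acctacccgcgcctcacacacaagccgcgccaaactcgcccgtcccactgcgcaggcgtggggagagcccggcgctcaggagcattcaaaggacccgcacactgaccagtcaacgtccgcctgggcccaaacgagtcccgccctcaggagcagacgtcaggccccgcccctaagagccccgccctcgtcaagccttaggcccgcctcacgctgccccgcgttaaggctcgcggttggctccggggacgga

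The ETS core begins 23 bases before the start of Nhp2 and 38 bases before that of Nop2, and the E-box begins 60 bases before the start of Nop2. Nhp2 and Nop2 were both higher in terminal end buds than in ducts, by 0.74 and 0.47. Mrto4, which was also higher and kept its call under every alternative tried, held neither motif in its window. Another motif, TCTCGCGA, was found in 1 of the 28 genes, Nop58, and in 1.63% of genes on the array.

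Other genes of the same pathway, listed apart from the 36, were counted in the same way. Of all probes, 23.2% were called higher and 20.4% lower than stroma in terminal end buds. Against ducts these shares were 8.32% and 10.4%. Of 15 further polymerase I genes, 6 were higher and 2 lower than stroma in terminal end buds, and 3 were higher and 0 lower than in ducts (limma; 4 and 2 at an unadjusted p under 0.05). Ubtf, the factor that opens ribosomal gene chromatin, was at 0.38 in terminal end buds and 0.48 in ducts. Of 34 further small subunit genes, 15 were higher and 3 lower than stroma in terminal end buds, and 6 were higher and 3 lower than in ducts. Snu13, which binds box C/D and U3 RNAs next to Nop56 and Nop58, led with a difference of 0.58 (SE 0.087), followed by Emg1 at 0.55. Of 42 further large subunit genes, 20 were higher and 4 lower than stroma in terminal end buds, with 4 higher and 3 lower than in ducts. These are 9.52% and 7.14% of the list, near the 8.32% and 10.4% of all probes. Nol8 at -0.63 and the nucleolar GTPase Gtpbp4 at -0.63 had the largest differences, and like Ncl they were lower in terminal end buds.

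Late factors and export genes were split. Of 8 measured, 4 were higher and 3 lower than stroma in terminal end buds, where 23.2% and 20.4% of all probes were. Ran, the GTPase that powers export, was higher in terminal end buds than in ducts by 1.02 (SE 0.12), while Sbds, which readies the large subunit for translation, was lower, with a difference of -0.84 (SE 0.12), as was the export receptor Xpo1 at -0.69 (SE 0.16). Of 17 genes of the nuclear exosome and RNase MRP, 3 were higher and 1 lower than in ducts. These are 17.6% and 5.88% of the list, beside 8.32% and 10.4% of all probes. Exosc8 was at 0.84 (SE 0.19) and Exosc6 at 0.62 (SE 0.12). Of 11 genes of the Myc network, 4 were higher than stroma in terminal end buds and 2 in ducts. These are 36.4% and 18.2% of the list, beside 23.2% and 16.0% of all probes. Myc itself was at 1.08 (SE 0.091) and 0.86 (SE 0.091), and its difference of 0.22 was not called (limma adjusted p = 0.297). Mycn differed by 0.602 (SE 0.17, limma adjusted p = 0.0199) and Mxd3, a partner-competing repressor of the network, by 1.31 (SE 0.23, limma adjusted p = 0.00104).

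Cytosolic ribosomal proteins, the cargo that these assembly factors handle, were above stroma in both structures. Of 52 measured, 37 were higher in terminal end buds and 38 in ducts, with median ratios of 0.78 and 0.88. Over all probes 23.2% and 16.0% were called higher. Between the structures 7 were higher and 5 lower. These are 13.5% and 9.62% of the list, near the 8.32% and 10.4% of all probes. The median difference was 0.011, beside 0.23 for the nucleolar genes. Whether the 2 lists differ was not tested. Array medians of the ribosomal proteins ran from 0.32 to 1.27 in terminal end buds and from 0.597 to 1.08 in ducts and overlapped. Array medians of the 33 nucleolar genes ran from 0.28 to 0.44 in terminal end buds and from 0.095 to 0.26 in ducts and did not.

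Other lists were higher, lower or split between the structures. Over all probes 8.32% were called higher in terminal end buds than in ducts and 10.4% lower. In terminal end buds 23 of 31 mitosis genes rose above their duct level and 0 fell below it (limma; 0 were lower at an unadjusted p under 0.05 as well), and their array medians ran from 0.81 to 1.67 in terminal end buds and from 0.059 to 0.67 in ducts. Of 9 endothelial markers, 8 were lower in terminal end buds than in ducts, with array medians from -1.46 to -1.17 and from -0.59 to -0.16. Of 11 adipocyte markers, 7 were lower, with array medians from -1.82 to -1.45 and from -0.55 to -0.28. Of 7 brown adipocyte markers, 4 were lower. Fibroblast markers were split, with 2 of 11 higher and 2 lower. Of 7 blood cell markers, 1 was higher and 0 lower (limma; 1 was lower at an unadjusted p under 0.05). Of 13 luminal markers, 3 were higher and 0 lower (limma, and 0 lower at an unadjusted p under 0.05), and their array medians overlapped, from 2.81 to 4.4 and from 2.84 to 3.6. Basal markers were nearer to stroma in terminal end buds, where 5 of 10 were lower than in ducts and 1 was higher. The part of dividing cells and of admixed stroma in the differences of the nucleolar genes was not tested.

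**Figure D4:**
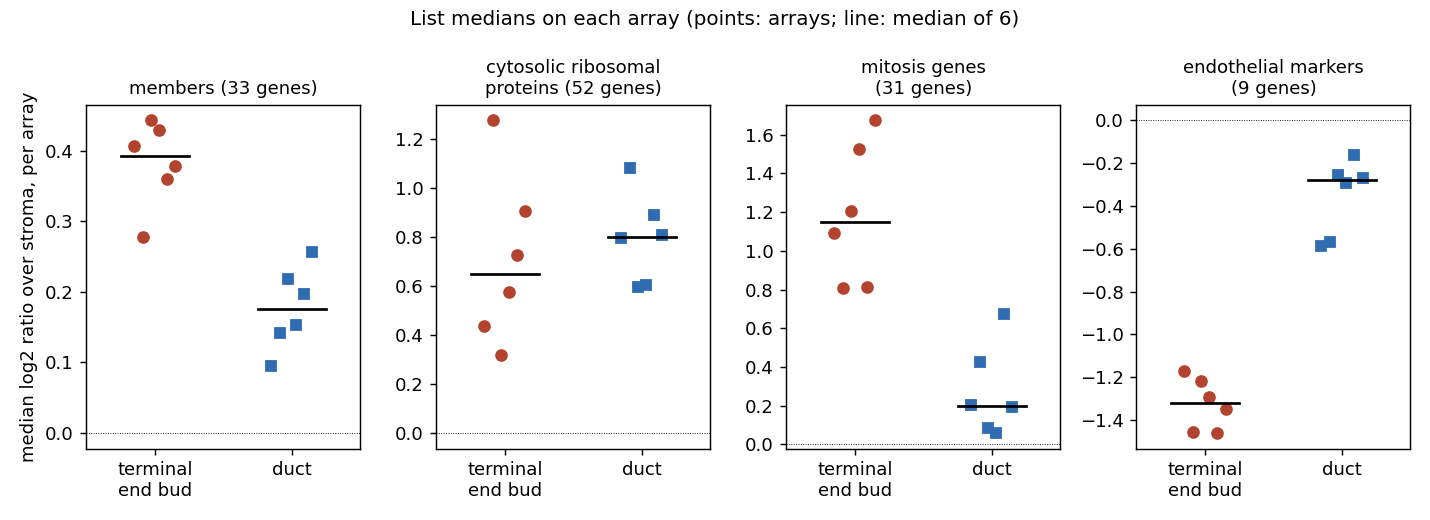
Median log2 ratio over stroma on each array for the 33 nucleolar genes, 52 cytosolic ribosomal proteins, 31 mitosis genes and 9 endothelial markers, with circles for terminal end bud arrays, squares for duct arrays and lines for the median of 6 arrays. Each panel has its own vertical scale. Nucleolar and mitosis medians are higher in terminal end buds without overlap, ribosomal protein medians overlap, and endothelial medians are lower in terminal end buds.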

How the data were processed

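The authors deposited 1 table of log2 ratios per the labels' channels, epithelium (Cy5) over distal stroma (Cy3). Base 2 is an assumption. No source used here names the scanner, background correction or normalization. Array medians lay between 0.01 and 0.023, and values were used as deposited. Gene symbols came from the platform annotation, in which 14136 probes had 1 symbol, 13 several and 3440 none here. A gene was read from the probe with most values, then the first in the table.

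All 17589 probes were fitted with limma 3.58.1 in R 4.3.3 (lmFit and eBayes, 2 group means over 12 arrays, two-sided), with Benjamini-Hochberg adjustment of each comparison across the whole table. No probe was filtered. Simulated data for terminal end bud against duct had 17589 probes, of which 200 were changed. In them 54% of changes of 0.5 and 92% of changes of 1 were recovered, with 5 false calls at each size. Recovery of smaller changes is not given here. The members, roles and lists were chosen with earlier results of these data known. Each member is accounted for, and from other lists at most 4 called genes with the largest difference are named, besides Ubtf and Myc, which were named after their values were seen. Alternatives were centring, quantile normalization, a common spread, array weights, another variance model, slide terms and blocks, complete probes, 1 structure alone, mean probes and each array left out.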

Additional observations from a re-analysis of the deposited data

Results flagged for a closer look

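Among 70 groups of 6 arrays, 3 held an array far from the other 5, and chance gives about 1 in 20. Nop16 was at -0.593 on terminal end bud replicate 5 against -0.007 to 0.25 on the others. Mybbp1a was at 0.699 on terminal end bud replicate 3 against 1.13 to 1.25. Polr1b was at 0.44 on duct replicate 4 against 0.037 to 0.13.

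The ratio over stroma differed between terminal end bud and duct, by the limma test of the difference, for 16 genes. The difference was -0.741 for Ncl, 0.773 for Fbl, 0.737 for Nhp2, 0.733 for Mybbp1a, 0.718 for Mrto4, 0.64 for Pa2g4, 0.564 for Nop56 and 0.532 for Tcof1. It was 0.472 for Nop2, 0.47 for Nolc1, 0.456 for Rrp9, 0.409 for Nip7, 0.375 for Noc2l, 0.366 for Bysl, 0.332 for Ddx21 and 0.321 for Pes1.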

How the results depend on the processing

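Slides up to 193 alone, with 2 arrays a structure, gave 15 genes higher than stroma in terminal end buds (median 0.276), 5 higher and 0 lower in ducts (limma; 12 and 1 at an unadjusted p under 0.05), and 5 higher and 2 lower between the structures (median 0.163). Slides from 196 on alone gave 1 lower in terminal end buds and 7 higher between the structures. Quantile normalization gave 9 higher between the structures, and the common spread 12. Leaving out 1 array in turn gave 21 to 24 higher genes in terminal end buds (median 0.345 to 0.439), 12 to 16 in ducts (median 0.155 to 0.212), and 13 to 15 between the structures (median 0.204 to 0.288, highest without terminal end bud replicate 5). Over single genes and alternatives, called results kept their call 1277 times, lost it 99 times and changed sign 0 times, and results not called gained a call 11 times. Replicate numbers only name arrays. With neighbouring slides as a block (correlation 0.0722), 23, 16 and 15 genes were higher, the same counts as without it.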
